A study of Homo sapiens with 24 samples.

Results

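The 10 genes described here carry propionate and acetate into cells or convert them, and were followed in HT29 cells, an established human colon adenocarcinoma line, after exposure to these acids. They were chosen by name: every non-control probe whose annotated gene symbol was SLC16A1, SLC16A3, SLC5A8, BSG, ACSS1, ACSS2, PCCA, PCCB, MCEE or MUT was taken, which gave 11 probes for 10 genes among 50599 probes for 36337 names on the array. No expression value entered this rule, though the members were chosen with earlier results of these data known. The filter on dim probes was passed by 9 of them, among 20700 genes of the array, and not by SLC5A8.

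Cells were left untreated (NT) or were treated for 6 h in 5 ways, with 4 arrays in each of the 6 groups. C3/C2 was a mixture of 30 mM propionate and 15 mM acetate. SN was the culture supernatant of the dairy bacterium Propionibacterium freudenreichii, diluted with an equal volume, and the C3/C2 mixture held the acids in the amounts found in it. TRAIL, a death ligand of the tumour necrosis factor family, was given as a Flag-tagged protein at 100 ng/ml with 2 µg/ml of the anti-Flag M2 antibody that clusters it. The last groups, TRAIL+C3/C2 and TRAIL+SN, received both agents. All samples were total RNA of a single cancer cell line at a single time, so protein amounts, fluxes and acid concentrations inside the cells were not measured. The study describes 2 independent experiments in duplicate, and the labels do not say which replicates belong to which, so that p-values measure the spread between these arrays only.

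Short-chain fatty acids are made by gut and dairy bacteria, and colon epithelial cells take them up and burn them. Monocarboxylate transporters move them across the plasma membrane together with a proton, and their chaperone basigin brings these transporters to the surface. Inside the cell an acyl-CoA synthetase joins acetate to coenzyme A, giving acetyl-CoA, while propionyl-CoA is carboxylated to methylmalonyl-CoA, turned into its mirror form and rearranged to succinyl-CoA, which enters the tricarboxylic acid cycle. These steps depend on biotin and on a cobalamin cofactor.

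Levels are given as log2 of the processed probe intensity after division by its 75th percentile on that array, so that a level of 0 is the intensity of that percentile and a difference of 1 is a doubling. Levels of different probes are not comparable with each other. A gene was called when it differed at least 2-fold with an adjusted p under 0.05 in limma's moderated test (Benjamini-Hochberg over 20700 genes, all 24 arrays in the fit). Arrays of a group correlated at 0.993 to 0.998, and 49.8% to 57.8% of the probes were well above background on an array. The line was checked against its label: all 12 colon epithelium markers (EPCAM, KRT20, CDX2 and others) were well above background on all 24 arrays. Of 12 markers of fibroblasts, leukocytes, endothelium and liver, COL1A2, COL3A1 and DCN were so on no array, and the summed level of the list ranged from 1.75 to 2.28 times the 75th percentile in NT and from 4.48 to 5.67 times in SN. The CD14 probe was at a mean of 1.70 times in NT and 3.79 times in SN, and that of COL1A1 at 0.0113 and 0.687; the part of these markers in the results was not tested.

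The arrays lay on 4 slides. NT and C3/C2 shared slides 1 and 2, SN and TRAIL shared slide 3, and both co-treatments lay on slide 4. Slide and treatment therefore cannot be told apart in the comparisons of SN, TRAIL and the co-treatments with NT. The same holds for SN against C3/C2 and for the interaction terms. C3/C2 against NT, SN against TRAIL and TRAIL+SN against TRAIL+C3/C2 each had a comparison within a slide. As in any bulk RNA sample, fewer cells expressing a gene and less of its RNA per cell cannot be told apart.

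SLC16A3 and ACSS2 were the only genes of the 10 called in any comparison with untreated cells. SLC16A3, the proton-coupled transporter MCT4 known mainly for lactate export, rose 2.77-fold under C3/C2, 3.29-fold under SN, 3.46-fold when TRAIL was added to C3/C2 and 3.74-fold when it was added to SN. ACSS2, the acetyl-CoA synthetase of the cytosol and nucleus, rose 2.50-fold, 2.59-fold, 2.21-fold and 2.20-fold in the same groups. In each of these 4 comparisons 2 of 9 tested genes were called, both higher, and TRAIL alone gave no call by limma (4 genes had an unadjusted p under 0.05). Over all genes tested, 19.6% were called for C3/C2, 24% for SN, 24.2% for TRAIL+C3/C2, 26.2% for TRAIL+SN and 2.93% for TRAIL alone, in either direction. The higher calls alone came to 13.4%, 14.2%, 16.3%, 16.1% and 0.749% of all genes, so that 2 of 9 members is close to the background. Over the 9 members the median difference was 0.33 under C3/C2, 0.29 under SN, 0.05 and 0.23 under the co-treatments with C3/C2 and with SN, and 0.08 under TRAIL, beside 0.08, -0.02, 0.10, 0.04 and 0.03 over all genes.

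**Figure D1:**
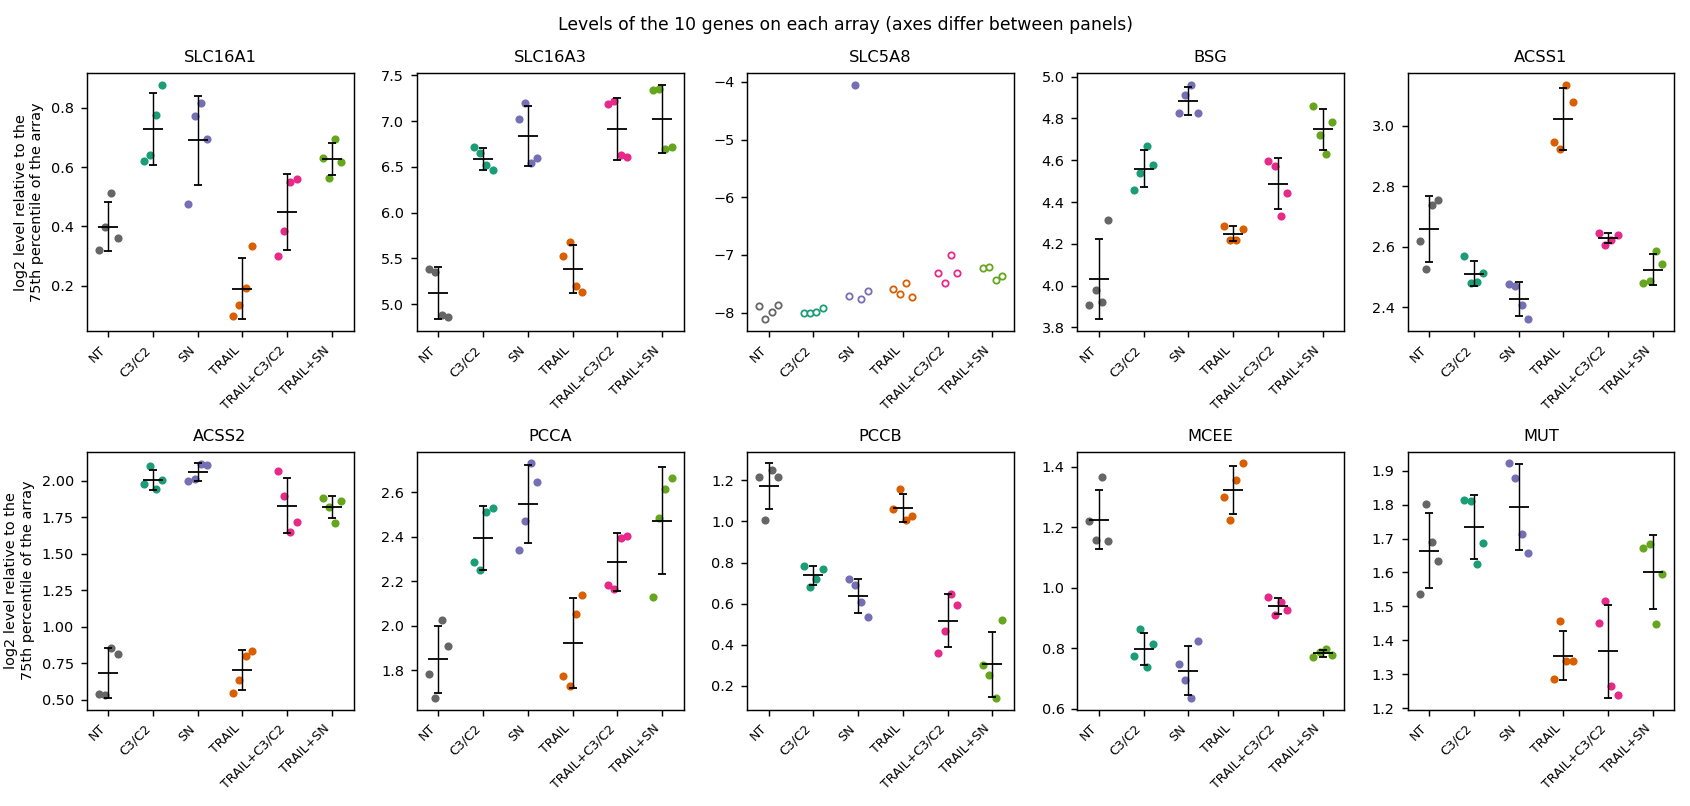
Levels of the 10 genes on all 24 arrays (y axis: log2 level above the array's 75th percentile; x axis: the 6 groups of 4 arrays, replicates 1 to 4 from left to right). Filled points are arrays on which the probe was well above background, open points are not; bars give mean ± SD where all 4 arrays were above it. SLC16A3 and ACSS2 lie above every NT and TRAIL array in all 4 acid-treated groups, PCCB and MCEE lie below them, and SLC5A8 is above background on 1 array.

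Promoter windows of the members were searched for a motif, because the members did not move as one group, and those that hold it are shown. They were taken from RefSeq (GRCh38.p14), as windows running from 250 bases before to 50 bases after an annotated start. Of the 10 genes, 9 had 16 windows between them, with MUT listed under its current symbol MMUT, and SLC16A1 was not in the table. Both strands were searched for ACGTG, the core shared by hypoxia response elements and by many E-boxes, which stands in 21.4% of all 35116 windows of this length. It was found in 4 of the 16 windows (25%), 1 each for SLC16A3, BSG, ACSS2 and MCEE, and is printed in capitals. The windows below were thus picked by the match and not by a change in level: those of PCCA, PCCB, ACSS1, MUT and SLC5A8 hold no match and are not printed. In BSG both strands match, overlapping within the palindrome CACGTG, which is printed whole and stands in 7.26% of all windows. The windows are, 5′ to 3′ on the gene's strand, chr17:82228792-82229091 (+) for SLC16A3, chr20:34876362-34876661 (+) for ACSS2, chr19:572346-572645 (+) for BSG and chr2:71130180-71130479 (-) for MCEE:
SLC16A3: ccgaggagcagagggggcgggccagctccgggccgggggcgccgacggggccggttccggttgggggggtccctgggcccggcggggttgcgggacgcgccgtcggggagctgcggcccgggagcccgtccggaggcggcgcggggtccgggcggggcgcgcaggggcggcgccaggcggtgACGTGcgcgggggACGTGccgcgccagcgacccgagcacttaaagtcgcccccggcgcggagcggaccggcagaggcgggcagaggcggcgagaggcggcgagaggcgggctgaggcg
ACSS2: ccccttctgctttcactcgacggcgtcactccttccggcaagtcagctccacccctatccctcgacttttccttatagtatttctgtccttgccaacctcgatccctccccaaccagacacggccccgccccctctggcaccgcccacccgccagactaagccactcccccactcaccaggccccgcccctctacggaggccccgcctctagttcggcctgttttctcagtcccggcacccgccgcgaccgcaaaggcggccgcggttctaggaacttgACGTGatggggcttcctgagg
BSG: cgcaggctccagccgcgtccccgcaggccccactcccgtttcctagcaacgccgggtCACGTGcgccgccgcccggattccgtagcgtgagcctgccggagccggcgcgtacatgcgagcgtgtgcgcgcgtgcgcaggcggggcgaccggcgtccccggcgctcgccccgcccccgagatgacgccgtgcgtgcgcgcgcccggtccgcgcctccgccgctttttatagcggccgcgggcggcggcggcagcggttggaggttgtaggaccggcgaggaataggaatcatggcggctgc
MCEE: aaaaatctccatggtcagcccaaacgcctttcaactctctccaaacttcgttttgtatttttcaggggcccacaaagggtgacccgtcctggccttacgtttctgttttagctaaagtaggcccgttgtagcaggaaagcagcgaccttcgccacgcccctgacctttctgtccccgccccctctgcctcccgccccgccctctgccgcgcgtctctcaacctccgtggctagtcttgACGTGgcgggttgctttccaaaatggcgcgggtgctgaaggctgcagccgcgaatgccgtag
SLC16A3 has 5 such windows and ACSS2 and BSG have 2 each, and the other windows of these genes hold no match. In SLC16A3, BSG and MCEE the match lies before the annotated start, and in ACSS2 it lies after it, 29 bases on. It stands in windows of genes that were higher and in that of MCEE, which was lower in the acid-treated groups, and its share among the members was near that of all windows. These matches are letters in a window and were not tested as binding sites.

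SLC16A3 was measured by a single probe at chr17:80197288-80197347 (hg19). Its level was 5.38, 5.36, 4.88 and 4.86 in NT replicates 1 to 4 and 6.72, 6.65, 6.52 and 6.46 with C3/C2. With SN it was 7.02, 7.20, 6.54 and 6.59. No C3/C2 or SN array reached down to the highest NT array. The difference from NT was 1.47 ± 0.20 (SE, n = 4 per group, adjusted p = 1.5e-06) with C3/C2 and 1.72 ± 0.20 (adjusted p = 1.3e-07) with SN. Within slide 2, which held 3 arrays of each group, the C3/C2 difference was 1.51, and with the slide as a fixed block it was 1.47.

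With TRAIL alone SLC16A3 was at 5.53, 5.67, 5.20 and 5.13, which overlapped NT, and the difference of 0.26 ± 0.20 did not pass the test over all arrays (adjusted p = 0.34). With the replicate number as a block in limma the adjusted p was 0.0074. In the co-treatments the level was 7.19, 7.22, 6.63 and 6.61 with TRAIL+C3/C2 and 7.33, 7.35, 6.69 and 6.71 with TRAIL+SN. All 8 co-treated arrays lay above all NT and TRAIL arrays. The differences from NT were 1.79 ± 0.20 (adjusted p = 7.1e-08) and 1.90 ± 0.20 (adjusted p = 2.6e-08). Between SN and TRAIL, on the same slide, SLC16A3 differed by 1.46 ± 0.20 (adjusted p = 1.5e-06). The interaction terms, which ask whether the acid effect differs with TRAIL present, were 0.06 (95% interval -0.53 to 0.65) for C3/C2 and -0.08 (-0.67 to 0.51) for SN.

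Replicates 1 and 2 of SLC16A3 were higher than replicates 3 and 4 in every group, NT included. The difference from NT was also taken within each pair of replicates. With C3/C2, where the pairs differed most, it was 1.32 ± 0.08 among replicates 1 and 2 and 1.62 ± 0.05 among 3 and 4. It was 1.74 and 1.69 with SN, 1.84 and 1.75 when C3/C2 came with TRAIL, and 1.98 and 1.83 when SN did. With TRAIL alone it was 0.23 (limma, adjusted p = 0.058) among replicates 1 and 2 and 0.29 ± 0.05 (adjusted p = 0.0076) among replicates 3 and 4, so that the TRAIL difference passed the test within 1 of the pairs of replicates and was under 2-fold. PCCA showed the opposite order, with replicates 1 and 2 lower than 3 and 4 in every group.

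**Figure D2:**
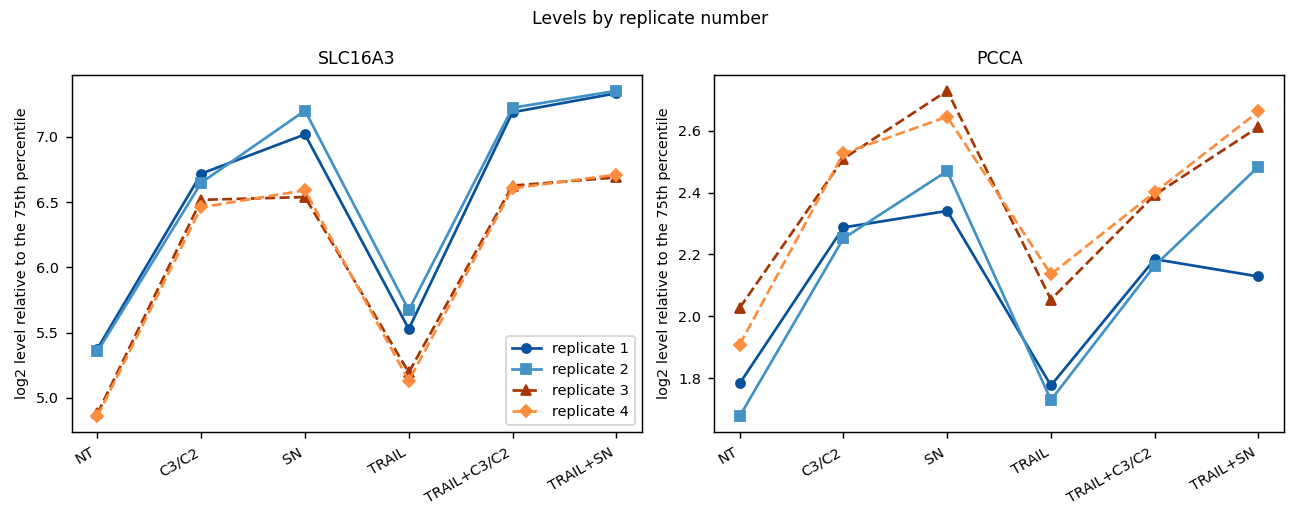
Levels of SLC16A3 (left) and PCCA (right) by replicate number (y axis: log2 level relative to the 75th percentile; x axis: the 6 groups; one line for each replicate number). Lines join equal numbers only to guide the eye. SLC16A3 is higher in replicates 1 and 2 than in 3 and 4 of each group, PCCA is lower, and all 4 lines rise from NT to C3/C2 and SN.

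SLC16A1 encodes MCT1, the transporter of this family best known for propionate, acetate, butyrate and lactate uptake in the colon. Its level was 0.32, 0.40, 0.51 and 0.36 in NT, 0.62, 0.64, 0.78 and 0.88 with C3/C2 and 0.48, 0.77, 0.81 and 0.69 with SN. Every C3/C2 array was above NT, while the lowest SN array overlapped it. The differences of 0.33 ± 0.08 (adjusted p = 0.0012) and 0.29 ± 0.08 (adjusted p = 0.0030) passed the adjusted p and were far under 2-fold. With TRAIL the difference was -0.21 ± 0.08 (adjusted p = 0.0504). It was 0.05 ± 0.08 with TRAIL+C3/C2 (adjusted p = 0.59), which turned to -0.30 under scaling to the array median and -0.66 under scaling to spike-in probes. With TRAIL+SN it was 0.23 ± 0.08 (adjusted p = 0.016), and -0.30 under spike-in scaling.

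BSG encodes basigin (CD147), the chaperone that MCT1 and MCT4 share. Its level was 3.91, 3.98, 3.92 and 4.31 in NT, 4.46, 4.54, 4.67 and 4.58 with C3/C2, and 4.83, 4.91, 4.96 and 4.83 with SN. All C3/C2 and SN arrays lay above all NT arrays, and each SN array lay above each C3/C2 array. The difference from NT was 0.53 ± 0.08 (adjusted p = 6.7e-06) with C3/C2 and 0.85 ± 0.08 (adjusted p = 6.1e-09) with SN, a 1.44-fold and a 1.80-fold difference. With TRAIL alone it was 0.22 ± 0.08 (adjusted p = 0.042), and 7 of the 8 fits with 1 array left out did not pass (adjusted p up to 0.13). The difference was 0.46 ± 0.08 (adjusted p = 3.6e-05) with TRAIL+C3/C2 and 0.72 ± 0.08 (adjusted p = 7.5e-08) with TRAIL+SN. Among replicates 3 and 4 alone that of TRAIL+C3/C2 was 0.27 (adjusted p = 0.094). The small TRAIL difference turned to -0.06 and that of TRAIL+C3/C2 to -0.26 under spike-in scaling, where the median of all genes was -0.24 and -0.62.

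Between SN and C3/C2, which lay on different slides, BSG was the 1 member past the adjusted p, higher by 0.32 ± 0.08 in SN (adjusted p = 0.0026). Between TRAIL+SN and TRAIL+C3/C2, within slide 4, 4 members passed it: BSG was higher with TRAIL+SN by 0.26 ± 0.08 (adjusted p = 0.015) and MUT by 0.23 ± 0.08 (0.026), while MCEE differed by -0.16 ± 0.05 (0.027) and PCCB by -0.21 ± 0.08 (0.036). Each of the 4 failed the adjusted p when some single arrays were left out. BSG did not pass without TRAIL+C3/C2 replicate 3 (0.21, adjusted p = 0.062) or TRAIL+SN replicate 1 (0.22, adjusted p = 0.052), MCEE failed in 3, MUT in 4 and PCCB in 5 of 8 such fits, with adjusted p up to 0.063, 0.094 and 0.13. Among replicates 1 and 2 alone BSG differed by 0.20 (adjusted p = 0.054) and among replicates 3 and 4 by 0.32 (adjusted p = 0.095). No member was called in either comparison by limma, beside 5.7% and 3.53% of all genes in either direction, with 1 and 5 members at an unadjusted p under 0.05. For SLC16A3 the difference between SN and C3/C2 was 0.25 (95% interval -0.16 to 0.67) and for ACSS2 it was 0.05 (-0.14 to 0.24). Within slide 4 the differences of SLC16A3 and ACSS2 between TRAIL+SN and TRAIL+C3/C2 were 0.11 (-0.31 to 0.53) and -0.01 (-0.20 to 0.18).

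SLC5A8, a sodium-coupled transporter of short-chain acids in normal colon, was not well above background on 23 of 24 arrays and was not tested. Its probe read -4.05 in SN replicate 2 and between -8.12 and -7.01 on all other arrays. The other 3 SN arrays were at -7.77 to -7.62, so the reading was not shared within its group.

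ACSS2 was measured at chr20:33515343-33515401 (hg19). Its level was 0.54, 0.53, 0.85 and 0.81 in NT, 1.98, 2.10, 1.94 and 2.00 with C3/C2, and 2.00, 2.01, 2.11 and 2.11 with SN. All 8 treated arrays lay above all NT arrays. The difference from NT was 1.32 ± 0.09 (adjusted p = 4.3e-11) with C3/C2 and 1.37 ± 0.09 (adjusted p = 1.8e-11) with SN. Within slide 2 the C3/C2 difference was 1.28.

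TRAIL alone left ACSS2 at 0.55, 0.64, 0.80 and 0.83, a difference of 0.02 ± 0.09 (adjusted p = 0.89). In the co-treatments it was at 2.07, 1.89, 1.65 and 1.72 with TRAIL+C3/C2 and at 1.88, 1.82, 1.71 and 1.86 with TRAIL+SN. All 8 arrays lay above NT and TRAIL, and the differences from NT were 1.15 ± 0.09 (adjusted p = 3.4e-10) and 1.14 ± 0.09 (adjusted p = 3.5e-10). Between SN and TRAIL on slide 3 ACSS2 differed by 1.35 ± 0.09 (adjusted p = 2.5e-11), and it was with SLC16A3 1 of the 2 members called there, both higher, beside 21.1% of all genes in either direction. Among replicates 3 and 4 alone the co-treatment differences were 0.85 and 0.96, under 2-fold, and among replicates 1 and 2 they were 1.44 and 1.31. Scaling to the array median gave 0.80 and 0.94, and scaling to spike-in probes 0.43 and 0.61, so that ACSS2 lost its call in both co-treatments. The median of all genes moved as well, from 0.10 and 0.04 to -0.25 and -0.16 and to -0.62 and -0.49, and relative to that median ACSS2 stood at 1.05 to 1.17 and 1.10 to 1.18 under all 4 scalings.

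ACSS1, the mitochondrial acetyl-CoA synthetase, had a pair of probes that differed from each other. Their first 30 bases, which show that they read separate stretches of the gene, are:
A_23_P120594 (chr20:24987029-24987088, 10 spots): tgttggctgcagggtacacaaatactgagt
A_33_P3422404 (chr20:25028722-25028781, 1 spot): agagcgttgctttgatctgggagcgcgatg
The first, brighter probe read 2.62, 2.53, 2.74 and 2.76 in NT and 2.94, 2.92, 3.13 and 3.08 with TRAIL. The second read -2.49, -2.55, -2.37 and -2.35 in NT and -1.86, -1.94, -1.73 and -1.66 with TRAIL. All TRAIL arrays lay above all NT arrays on both probes, and the differences were 0.36 ± 0.06 and 0.64 ± 0.10 (adjusted p = 7.0e-05 and 4.2e-05 with the probes as rows).

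With C3/C2 and SN both ACSS1 probes were lower than in NT, by -0.15 and -0.23 on the first probe (adjusted p = 0.029 and 0.0012) and by -0.35 and -0.32 on the second (adjusted p = 0.0037 and 0.0056). With TRAIL+C3/C2 they parted: the first read 2.65, 2.61, 2.62 and 2.64, a difference of -0.03 from NT (adjusted p = 0.64), and the second read -2.07, -2.07, -1.81 and -1.74, a difference of 0.52 (adjusted p = 7.8e-05). The arrays of the first probe fell within the NT range, and those of the second lay above it. With TRAIL+SN the differences were -0.13 (adjusted p = 0.042) and 0.20 (adjusted p = 0.066). For the first probe, the C3/C2 difference passed the adjusted p in 4 and that of TRAIL+SN in 3 of 8 fits with 1 array left out (adjusted p up to 0.099 and 0.14). Among replicates 1 and 2 alone this probe differed by -0.05 with C3/C2 and -0.10 with SN (limma, adjusted p = 0.49 and 0.16). Among replicates 3 and 4 it differed by -0.25 and -0.36 (adjusted p = 0.0043 and 0.00044). The mean of both probes gave 0.24 and 0.04 for the co-treatments. Which transcripts each probe reads was not tested.

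**Figure D3:**
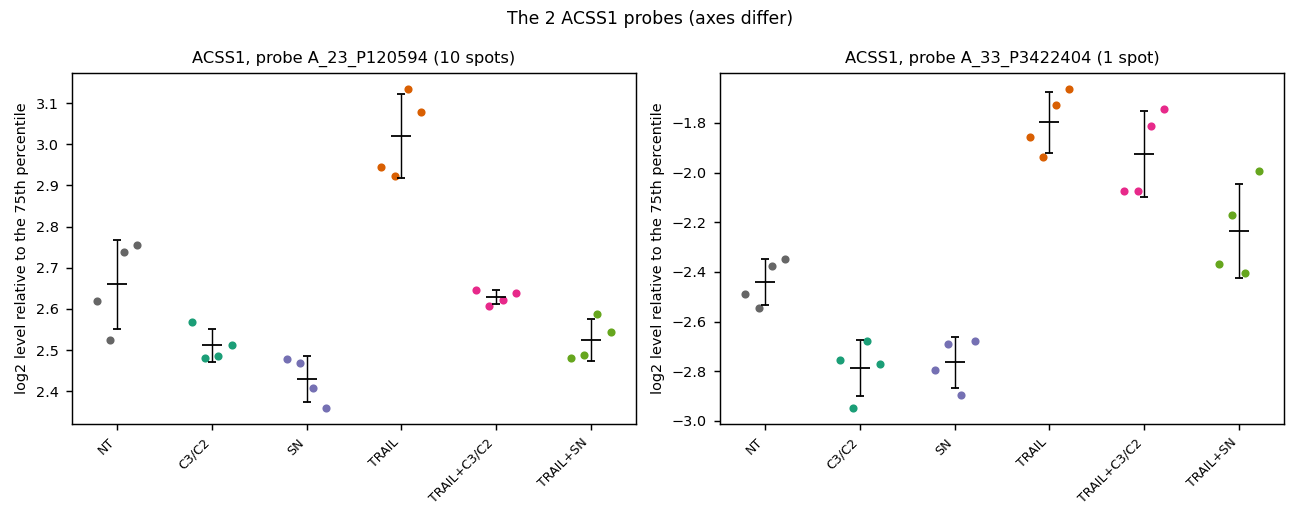
The pair of ACSS1 probes on all 24 arrays (y axis: log2 level relative to the 75th percentile, different ranges; x axis: the 6 groups; bars: mean ± SD, n = 4). TRAIL arrays are above NT on both probes, and TRAIL+C3/C2 arrays lie within the NT range on the left and above it on the right.

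Propionyl-CoA carboxylase is built of an alpha subunit, PCCA, which carries biotin, and a beta subunit, PCCB, and their transcripts moved in opposite directions. PCCA was at 1.78, 1.68, 2.03 and 1.91 in NT, 2.29, 2.25, 2.51 and 2.53 with C3/C2, and 2.34, 2.47, 2.73 and 2.65 with SN. PCCB was at 1.21, 1.01, 1.25 and 1.22 in NT, 0.78, 0.68, 0.72 and 0.77 with C3/C2, and 0.72, 0.69, 0.61 and 0.54 with SN. All treated arrays were above NT for PCCA and below NT for PCCB. The differences for PCCA were 0.55 ± 0.12 (adjusted p = 0.00057) and 0.70 ± 0.12 (adjusted p = 3.4e-05). Those for PCCB were -0.43 ± 0.08 (adjusted p = 5.0e-05) and -0.53 ± 0.08 (adjusted p = 3.2e-06). None of them reached 2-fold.

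In the co-treatments PCCB was at 0.36, 0.47, 0.65 and 0.59 with TRAIL+C3/C2 and at 0.30, 0.25, 0.14 and 0.52 with TRAIL+SN, below all NT and TRAIL arrays. The differences from NT were -0.65 ± 0.08 (adjusted p = 1.8e-07) and -0.87 ± 0.08 (adjusted p = 2.3e-09), and TRAIL+SN was lower than TRAIL+C3/C2 by -0.21 ± 0.08, as given above. With the array median as the scale they were -1.0 and -1.06, and with spike-in probes -1.37 and -1.39, so that PCCB was called lower under these scalings and the calls with TRAIL+C3/C2 and TRAIL+SN split into SLC16A3 higher and PCCB lower, joined with TRAIL+C3/C2 by MUT lower under spike-in scaling. Relative to the median of all genes PCCB stood at -0.75 to -0.64 and -0.90 to -0.84 under the 4 scalings. PCCA differed from NT by 0.44 ± 0.12 with TRAIL+C3/C2 (adjusted p = 0.0034) and by 0.62 ± 0.12 with TRAIL+SN (adjusted p = 0.00012). The TRAIL+C3/C2 difference turned to -0.28 under spike-in scaling, where the median of all genes was -0.62. Relative to that median PCCA stood at 0.34 to 0.43 with TRAIL+C3/C2 under the 4 scalings. TRAIL alone gave 0.08 for PCCA and -0.11 for PCCB, neither past the test (adjusted p = 0.69 and 0.31).

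MCEE, the epimerase that follows the carboxylase, was at 1.22, 1.16, 1.37 and 1.15 in NT, 0.77, 0.86, 0.74 and 0.81 with C3/C2 and 0.75, 0.70, 0.64 and 0.83 with SN. No treated array overlapped NT. The differences were -0.43 ± 0.05 (adjusted p = 5.2e-07) and -0.50 ± 0.05 (adjusted p = 4.7e-08). They were -0.29 ± 0.05 with TRAIL+C3/C2 (adjusted p = 8.2e-05) and -0.44 ± 0.05 with TRAIL+SN (adjusted p = 2.6e-07), and 0.10 ± 0.05 with TRAIL (adjusted p = 0.18).

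MUT (current symbol MMUT), the cobalamin-dependent mutase that makes succinyl-CoA, was at 1.54, 1.80, 1.69 and 1.63 in NT, 1.81, 1.81, 1.63 and 1.69 with C3/C2 and 1.92, 1.88, 1.71 and 1.66 with SN. These groups overlapped, and the differences of 0.07 and 0.13 did not pass the test (adjusted p = 0.47 and 0.16). With TRAIL it was at 1.29, 1.46, 1.34 and 1.34, below every NT array, a difference of -0.31 ± 0.08 (adjusted p = 0.0052). TRAIL+C3/C2 gave -0.30 ± 0.08 (adjusted p = 0.0024) and TRAIL+SN -0.06 ± 0.08 (adjusted p = 0.49). The difference between the co-treatments, 0.23 ± 0.08, passed the adjusted p over all arrays (0.026). Among replicates 1 and 2 alone MUT did not pass in limma. It differed from NT by -0.30 with TRAIL (adjusted p = 0.052) and -0.19 with TRAIL+C3/C2 (adjusted p = 0.12). Among replicates 3 and 4 these were -0.32 (adjusted p = 0.011) and -0.41 (adjusted p = 0.00078).

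By adjusted p alone, with no fold required, 5 members were higher and 3 lower with C3/C2, where 35.2% of all genes were higher and 27.7% lower. The counts were 5 and 3 with SN (35.1% and 34.2% of all genes), 4 and 3 with TRAIL+C3/C2 (39.9% and 29.5%), 5 and 3 with TRAIL+SN (37.4% and 32.7%) and 2 and 1 with TRAIL (20.3% and 13.1%). Neither interaction called a member by limma, with 2 members each at an unadjusted p under 0.05 and 0.657% and 3.1% of all genes called. For BSG the SN difference was 0.85 without TRAIL and 0.50 with it, an interaction of -0.35 ± 0.11 (adjusted p = 0.030). For ACSS1 it was -0.23 without and -0.50 with TRAIL, an interaction of -0.26 ± 0.08 (adjusted p = 0.021) on the first probe and -0.11 (adjusted p = 0.61) on the second. The 4 groups of this term lie on all 4 slides, and slide and interaction cannot be told apart.

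**Figure D4:**
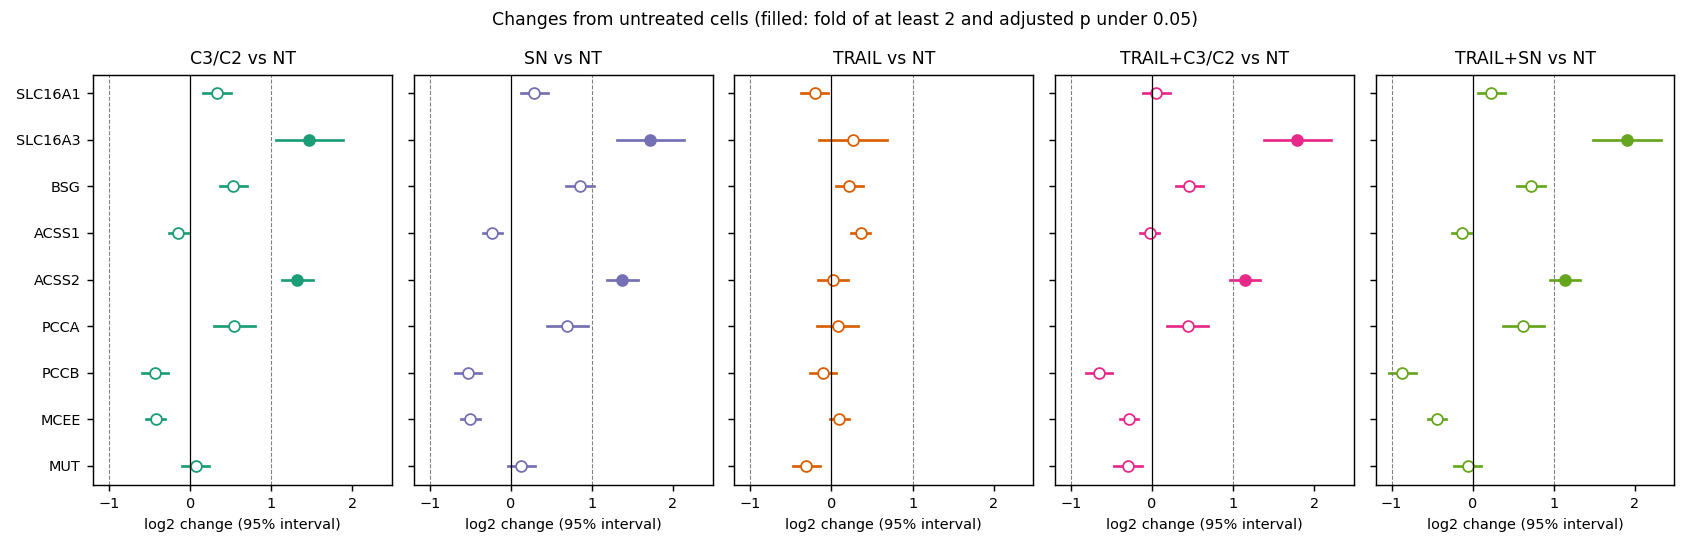
Differences from NT of the 9 tested genes (x axis: log2 difference; points with 95% confidence intervals from limma, n = 4 arrays per group; one panel for each treated group; dashed lines at 2-fold). Filled points are called; SLC16A3 and ACSS2 are filled in the 4 acid-treated groups, and none with TRAIL alone.

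The genes whose level followed the called members most closely over the 24 arrays were OASL (Pearson r = 0.991, Spearman rho = 0.961) and SLC4A11 (0.989 and 0.971) for SLC16A3, and ATP7B (0.988 and 0.916) and MAP1A (0.986 and 0.896) for ACSS2. All arrays share the group structure, and 218 and 487 of 14023 genes compared had an r above 0.95 with SLC16A3 and ACSS2. SLC16A3 and ACSS2 correlated at 0.882 with each other.

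Around the members stand other transporters, receptors and enzymes of the same routes, taken as 8 lists. Of the 20700 genes tested, 2784, 2949, 155, 3364 and 3323 were called higher (C3/C2, SN, TRAIL, TRAIL+C3/C2, TRAIL+SN). Called lower were 1278, 2017, 452, 1642 and 2097 in the same order. The shares of all genes past the adjusted p alone are those given above beside the members. Of 14 genes in the list of other monocarboxylate transporters, which includes the chaperone EMB, 9 were tested, and C3/C2 called 2 higher and 1 lower, SN 1 and 2, TRAIL 0 and 2, and each co-treatment 2 and 2. The TRAIL count fell to 1 without NT replicate 2 or TRAIL replicate 3. SLC16A13, an orphan member of the family, ranged from -3.72 to -3.46 in NT, from -2.60 to -2.30 with C3/C2 and from -2.83 to -2.57 with SN. It was higher by 1.15 under C3/C2, 0.91 under SN, 1.33 under C3/C2 plus TRAIL and 1.07 under SN plus TRAIL, and was called in all but SN; without TRAIL+SN replicate 1 or 2 its TRAIL+SN difference was 0.97 or 0.96, under 2-fold.

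Of 6 receptors of short-chain acids and lactate 4 were tested, and 2 of them, HCAR1 and FFAR2, were called lower in each of the 4 acid-treated groups. Without a fold threshold C3/C2 and TRAIL+C3/C2 each had another 2 past the adjusted p upwards, while with TRAIL alone none was called or passed the adjusted p. HCAR1, the lactate receptor GPR81, ranged from 1.09 to 1.93 in NT and from -0.03 to 0.08 with C3/C2, with differences of -1.62, -1.41, -1.5 and -1.31 in the order above. FFAR2 (GPR43), a receptor of acetate and propionate, ranged from -4.06 to -2.86 in NT, from -5.47 to -4.31 with C3/C2 and from -5.24 to -4.58 with SN. No array of these treated groups reached the NT range, and the differences were -1.54, -1.57, -1.44 and -1.46, with 3 of 4 TRAIL+C3/C2 arrays well above background. HCAR3 was higher by 1.13, a call, in the TRAIL+C3/C2 group, and its probe may also read the near-identical HCAR2.

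Among 8 tested acyl-CoA synthetases other than the members, C3/C2 called 1 higher, SN 3, TRAIL+C3/C2 1 and TRAIL+SN 2, and none was called lower. The TRAIL+SN count was 1 without TRAIL+SN replicate 1 or 2, where ACSL3 was at 0.98 and 0.99, and 3 without NT replicate 3 or TRAIL+SN replicate 4. ACSF2, of the medium-chain group, was higher by 1.47, 1.40, 1.46 and 1.38. The long-chain enzyme ACSL3 was higher by 1.25 with SN and 1.05 with TRAIL+SN, against 0.26 and 0.11 with C3/C2 and TRAIL+C3/C2. ACSL1, also long-chain, was called with SN (1.20) and was at 0.75, 0.82 and 0.99 in the other acid-treated groups.

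Of 15 tested genes for cobalamin and biotin handling, C3/C2 called 2 lower, each co-treatment called 4 lower, and none was called higher. With SN 9 were lower and 3 higher by adjusted p alone, beside 34.2% and 35.1% of all genes, and limma called none. That count became 2 without NT replicate 1 and 1 without SN replicate 1 or 2, and the count for TRAIL+SN fell from 4 to 2 without NT replicate 2. The list's median was -0.50, -0.54, -0.57 and -0.61 in the 4 acid-treated groups. MMAA, which loads cobalamin onto the mutase, ranged from -2.39 to -2.15 in NT and from -3.70 to -3.53 with C3/C2, a difference of -1.37. Under SN it differed by -0.76 and under TRAIL+SN by -1.03. For TRAIL+C3/C2 the difference was -2.03, and 2 of its 4 arrays were well above background. HLCS, which attaches biotin to carboxylases, was lower by -1.11, -0.85, -1.32 and -1.04. MMAB and MTR, which make and use cobalamin cofactors, were called lower with TRAIL+C3/C2 (-1.11 and -1.08), and MTR with TRAIL+SN (-1.01). The TRAIL+SN differences lie close to 2-fold: MTR was under it without NT replicate 1 or 2 or TRAIL+SN replicate 2 or 4 (-0.999 to -0.966), MMAA without NT replicate 3 or TRAIL+SN replicate 3 or 4 (-0.996 to -0.951), and HLCS without NT replicate 2 (-0.99).

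Of 16 genes of lactate and pyruvate handling, C3/C2 and TRAIL+C3/C2 each called 2 higher, SN and TRAIL+SN each called 1, and LDHC was lower with SN (-1.05). LDHC was under 2-fold without NT replicate 1 (-0.98) or SN replicate 3 (-0.93), which left 1 call of the list with SN, and without TRAIL+SN replicate 1 the list had 2 calls with TRAIL+SN. LDHD, the mitochondrial D-lactate dehydrogenase, showed the widest difference among the genes named here: from -4.85 to -4.50 in NT to between -1.61 and -1.38 with C3/C2 and between -3.10 and -2.87 with SN. The ranges of the 3 groups did not overlap, and the differences from NT were 3.19 under C3/C2, 1.73 under SN, 2.46 under C3/C2 plus TRAIL and 1.38 under SN plus TRAIL. LDHD was lower in SN than in C3/C2 by -1.45 ± 0.18 (adjusted p = 1.5e-06), where slide and treatment cannot be told apart. PDK4, a kinase that switches off pyruvate dehydrogenase, was called with C3/C2 (1.05) and TRAIL+C3/C2 (1.21).

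In branched-chain amino acid breakdown, which also feeds propionyl-CoA, C3/C2 and TRAIL+C3/C2 each called 2 of 20 tested genes higher, SN called 1 and TRAIL+SN none (limma; 9 were higher and 6 lower there by adjusted p alone). They were the dehydrogenase ACADSB (1.38 with C3/C2) and the phosphatase PPM1K (1.34 with C3/C2, 1.08 with SN). Of 16 tricarboxylic acid cycle genes, SDHD was lower with TRAIL+SN (-1.06) and no other was called in a comparison with NT. Without NT replicate 3 or TRAIL+SN replicate 2 SDHD was at -0.97 or -0.99, and no gene of the cycle was called. Of 11 tested genes that use acetyl-CoA or deacetylate ACSS enzymes, CPT1A, which admits long-chain fatty acids to mitochondria, was higher with SN (1.16) and TRAIL+SN (1.20). It was also called with TRAIL+C3/C2 when NT replicate 1 or 2 or TRAIL+C3/C2 replicate 3 or 4 was left out, and CPT2 with TRAIL+SN without TRAIL+SN replicate 2. TRAIL alone called a gene only in the list of transporters among these 8. SLC16A6 remained called there without NT replicate 2 or TRAIL replicate 3. Its probe was well above background on only 4 arrays of the whole set, so the size of its difference was not measured.

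**Figure D5:**
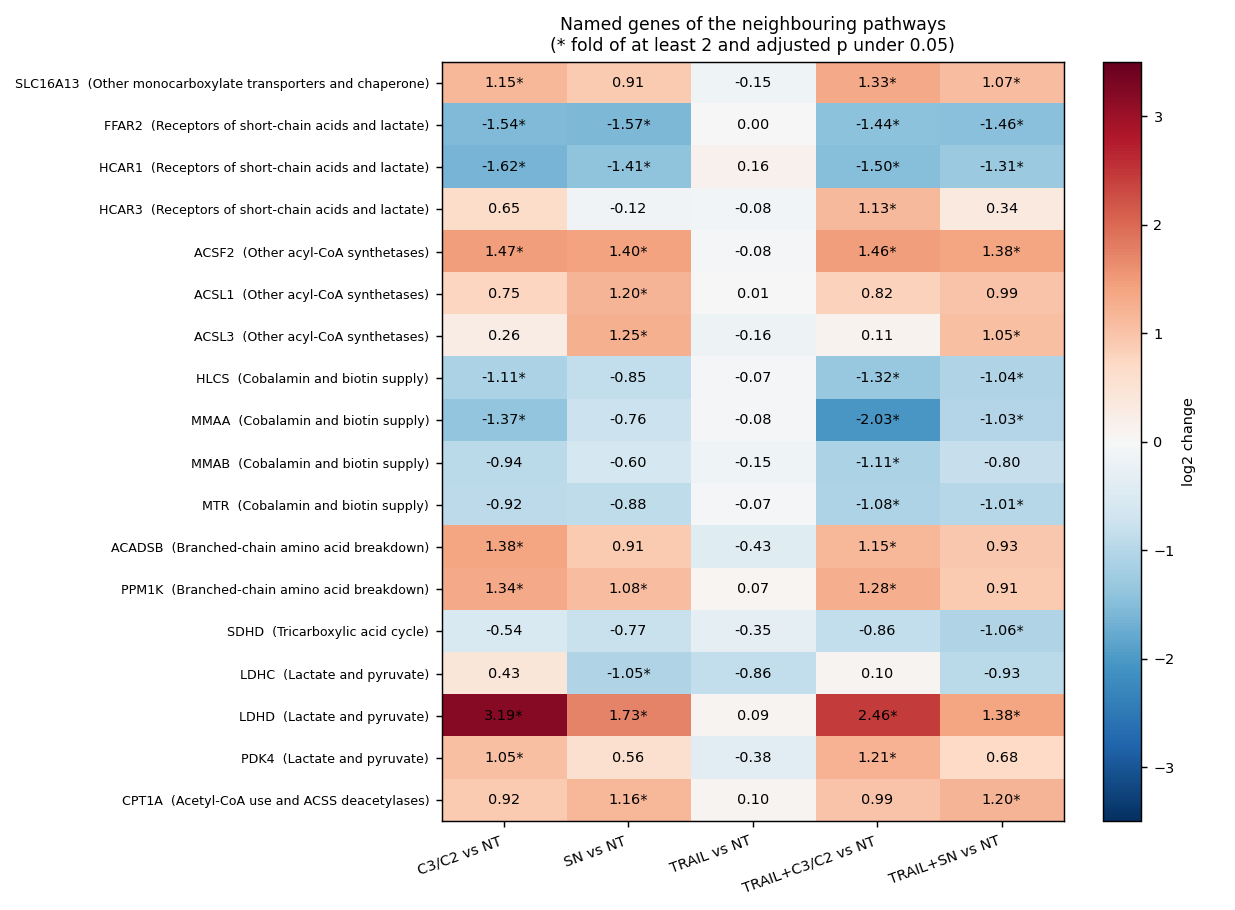
Log2 differences from NT of the named genes of the 8 neighbouring lists (rows: genes with their list; columns: the 5 treated groups; colour and printed number: log2 difference; star: called). LDHD reaches 3.19 with C3/C2, the receptors FFAR2 and HCAR1 and the cofactor genes are negative in the 4 acid-treated groups, and no cell is starred with TRAIL alone.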

How the data were processed

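Total RNA of HT29 cells was labelled with 1 dye and hybridised to 24 Agilent 60-mer arrays on 4 slides (6 groups of 4). The authors scanned the arrays and deposited the output of Agilent Feature Extraction 10.7.3.1 (hg19 annotation), whose processed intensity is background-corrected and not scaled between arrays. They also deposited a table of the same intensity as a ratio to the array median (equal to within 5.0e-05 percent), with 24 columns of detection flags that were not used.

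Control spots and outlier flags (190 to 315 spots per array) were left out, no spot was saturated, and spots of a probe were averaged. Intensities were divided by each array's 75th percentile (453 to 1009 units) and taken to log2. A probe was kept when 1 group or more had it well above background on each of its 4 arrays (27953 of 50599 probes, 20700 genes, the brightest probe for each gene). limma 3.58.1 in R 4.3.3 fitted the 6 groups (18 residual degrees of freedom), with Benjamini-Hochberg adjustment. The number of arrays limits the precision: the median standard error of a difference from NT was 0.11. The script was tested on simulated data.

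The members, lists and tests were chosen with earlier results of these data known. Named genes were all members with every probe, up to 4 genes of each list with the largest called difference from NT that were above background on all arrays of both groups, and the 2 genes most correlated with each called member. Scaling, background correction, filters, probe rule, fold threshold, slide, replicate block and single arrays left out were varied. Promoters came from RefSeq, GRCh38.p14.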

Additional observations from a re-analysis of the deposited data

Results flagged for a closer look

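With 66 checks of a gene's probe within a group, 2 arrays stood apart from the other 3 of their group by Dixon's test, and chance flags about 1 in 20 such groups. SLC5A8 read -4.05 in SN replicate 2 against -7.77 to -7.62 on the other SN arrays, and was well above background there only. PCCB read 1.01 in NT replicate 2 against 1.21 to 1.25 on the other NT arrays, which was still above all arrays of the 4 acid-treated groups.

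The effect of SN differed between cells with and without TRAIL for BSG, by -0.35 (adjusted p of the interaction = 0.030), and for ACSS1, by -0.26 (adjusted p = 0.021). Neither difference reached 2-fold, and the second ACSS1 probe gave -0.11 (adjusted p = 0.61).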

How the results depend on the processing

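For the 8 called differences of SLC16A3 and ACSS2 from NT the direction held in all 188 alternatives run, and of 890 alternatives for the 38 member differences past the adjusted p 884 kept it. Requiring no fold gave 8 members with C3/C2, SN and TRAIL+SN, 7 with TRAIL+C3/C2, 3 with TRAIL, 9 for SN against TRAIL, 1 (BSG) for SN against C3/C2, 4 for TRAIL+SN against TRAIL+C3/C2 and 2 for the interaction of TRAIL with SN. A fold of 1.5 gave 4 with SN, 5 with TRAIL+SN and 6 for SN against TRAIL. Among replicates 3 and 4, a split chosen after seeing the data, SLC16A3 was the 1 member called in TRAIL+C3/C2 and the 1 in TRAIL+SN. Leaving out any array changed no count of members called, each staying at 2 or 0 as in the fit of all arrays.

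These differences changed sign. Scaling to the array median: MUT -0.23 with C3/C2 and -0.00057 with SN, SLC16A1 -0.30 with TRAIL+C3/C2, ACSS1 0.050 and ACSS2 0.14 for TRAIL+SN against TRAIL+C3/C2. Quantile scaling: ACSS2 -0.0087 with TRAIL and 0.0018 between co-treatments, SLC16A1 -0.00017 with TRAIL+C3/C2. Scaling to spike-in probes: MUT -0.11 with C3/C2; ACSS2 -0.25, BSG -0.055, MCEE -0.18, PCCA -0.20 and SLC16A3 -0.010 with TRAIL; BSG -0.26, PCCA -0.28 and SLC16A1 -0.66 with TRAIL+C3/C2; SLC16A1 -0.30 with TRAIL+SN; ACSS1 0.086, ACSS2 0.18 and MCEE 0.032 between co-treatments. Normexp background: ACSS2 -0.038 with TRAIL. Mean of probes: ACSS1 0.24 (TRAIL+C3/C2) and 0.035 (TRAIL+SN). Within slide 2 and without slide 1 (the latter chosen after seeing the data): MUT -0.00028 with C3/C2; without slide 1, ACSS2 -0.028 with TRAIL. Within replicates 1 and 2: PCCB 0.00081 with TRAIL, ACSS1 0.055 and SLC16A1 -0.017 with TRAIL+C3/C2, MUT 0.011 with TRAIL+SN. Within replicates 3 and 4: MUT -0.0050 with C3/C2, ACSS2 -0.015 with TRAIL and 0.11 between co-treatments. With 1 array left out ACSS2 ranged from -0.030 to 0.076 with TRAIL and from -0.071 to 0.069 between co-treatments, and ACSS1 from -0.076 to 0.0011 with TRAIL+C3/C2. The cause was not tested, apart from the scalings, which moved the median of all genes: it was -0.22, -0.15, 0.13, -0.25 and -0.16 (C3/C2, SN, TRAIL, TRAIL+C3/C2, TRAIL+SN) with the array median and -0.10, 0.05, -0.24, -0.62 and -0.49 with spike-in probes. Of all calls against NT, 68.5%, 59.4%, 25.5%, 67.2% and 61.3% were higher, which became 46.0%, 50.2%, 34.8%, 42.2% and 48.2% with the array median, 59.8%, 54.4%, 27.2%, 54.5% and 53.5% with quantile scaling, and 54.9%, 64.2%, 9.4%, 21.1% and 27.5% with spike-in probes.

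The fit of all arrays did not pair arrays by replicate number. Yet deviations of equal numbers correlated at 0.06 to 0.47 (median 0.20), and 44 of 60 comparisons were best with the own number. Other numbers of the same pair of replicates had a median of 0.14, and numbers of different pairs had -0.17. The replicates thus share structure that the standard errors and p-values of the fit of all arrays leave out. With the replicate block the count of members called stayed at 2 and 0 as before. It moved the TRAIL differences of SLC16A3 and SLC16A1 past the adjusted p (0.0074 and 0.0080), and those of PCCA and SLC16A1 between the co-treatments (0.018 and 0.020). Slide as a random block (correlation 0.026) changed no count either. Among the named genes of other lists, 73 of 1001 alternatives lost a call and none changed direction, 17 of them with normexp background, 14 with spike-in scaling and 10 with the array median. The mean of a gene's probes lost 3. Of these genes MTR and SDHD had 3 probes and HCAR1, ACADSB and PPM1K had 2, and only the brightest is given. Probes near background, such as SLC5A8, have no measured difference.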
